A study of Homo sapiens with 15 samples.

Results

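Polyamine metabolism is represented here by 10 genes, SAT1, SAT2, ODC1, OAZ1, OAZ2, AZIN1, SMS, SRM, AMD1 and SMOX, which were picked by symbol for their roles in polyamine synthesis, catabolism and antizyme control out of 19604 protein-coding entries. All 10 were found in both deposited tables. The list was drawn up around SAT1 and ODC1 with results of these data in view, so the values of SAT1 and ODC1 are given as a description without a test, and the remaining 8 genes are given with the test that was fitted over all genes. Expression was measured by RNA sequencing of total RNA in the acute myeloid leukaemia line OCI-AML5, an established line that is kept in medium with serum and the cytokine GM-CSF, in 15 libraries that form 5 groups of 3. The drug experiment had untreated control cells, cells given 1000 nM OTX015 for 4 h and cells given 1000 nM ARV-825 for 4 h. OTX015 is a small-molecule inhibitor of the BET bromodomain proteins, which read acetylated histones, and ARV-825 is a degrader that joins OTX015 through a linker to a ligand of the ubiquitin ligase subunit cereblon. The shRNA experiment had cells transduced for 72 h with a non-targeting shRNA or with an shRNA against RUNX1, a DNA-binding regulator of haematopoiesis. The series concerns leukaemia cells with mutant RUNX1. All 5 groups are the same single line, the drug controls are described as untreated with no vehicle named, and the labels give no shRNA sequence.

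Polyamines are small positively charged molecules, chiefly putrescine, spermidine and spermine, that bind nucleic acids and are needed for cell growth. Ornithine decarboxylase (ODC1) makes putrescine, S-adenosylmethionine decarboxylase (AMD1) provides the aminopropyl donor, and spermidine synthase (SRM) and spermine synthase (SMS) extend the chain. Spermidine/spermine acetyltransferase (SAT1) marks polyamines for export or back-conversion, and spermine oxidase (SMOX) turns spermine back into spermidine. Antizymes (OAZ1, OAZ2) bind ornithine decarboxylase and send it to the proteasome, and the antizyme inhibitor (AZIN1), an inactive relative of the enzyme, takes the antizymes up. Much of this control acts on translation and protein turnover, which RNA levels do not show.

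Levels are in FPKM (fragments scaled to transcript length and library size, a unit that allows genes of different length to be compared), as read from deposited values that carry no stated unit and that were quantile normalized separately in the drug table and in the shRNA table. A log2 change is the difference of mean log2(FPKM + 1), which understates changes of low genes, and a gene was called when its adjusted p in limma (Benjamini-Hochberg over all tested genes) was under 0.05. Summed FPKM lay between 554570 and 656995 in a library, the read depth is unknown, and 10496 to 10927 genes per library reached 1 FPKM. The median over all entries was 1.8, 1.83 and 1.92 FPKM in the ARV-825 libraries. It lay between 2.15 and 2.2 FPKM in the untreated libraries and between 2.06 and 2.1 in the OTX015 libraries. Since FPKM are scaled to library size, each rise or fall below is relative to the other mRNAs. Whether mRNA per cell changed was not tested. RUNX1 itself stood at 69.8, 72.2 and 69.8 FPKM with non-targeting shRNA and at 37.2, 42.9 and 36.0 FPKM with RUNX1 shRNA. RUNX3, which the titles of the latter libraries name, had a mean of 27.0 FPKM with non-targeting and 28.4 FPKM with RUNX1 shRNA (limma adjusted p = 0.341), so RUNX1 and not RUNX3 differed as the treatment label says. Of 9 myeloid markers, 8 reached a mean of 1 FPKM in both tables and ANPEP did not. Of 17 markers of erythroid, megakaryocyte, B, T, epithelial and fibroblast cells, 3 reached it in the drug table and 2 in the shRNA table, the highest being CD79A at 3.99 FPKM. The summed myeloid markers lay between 935.1 and 1002 FPKM in control, between 582.8 and 596.9 after OTX015, and between 660.2 and 691.7 after ARV-825. In the shRNA table they lay between 885.9 and 915.9 FPKM for non-targeting shRNA and between 765.1 and 787.0 for RUNX1 shRNA. LYZ fell by more FPKM than the sum did (mean 541.7 with non-targeting and 366.3 with RUNX1 shRNA), because other markers rose. SPI1 (159.4 and 142.7), CSF2RA (2.58 and 1.69) and MPO (2.44 and 0.903) also had lower means with RUNX1 shRNA. PTPRC (111.5 and 151.5), CD33 (62.3 and 71.7), CSF2RB (9.47 and 11.1) and CD34 (15.3 and 29.8) had higher means. With RUNX1 shRNA the markers thus did not move as one. In the drug table PTPRC, SPI1, CD33, CSF2RA, CSF2RB, LYZ and CD34 had lower means with both drugs than in control. SPI1, for example, had means of 208.4 FPKM in control, 61.4 with OTX015 and 59.9 with ARV-825. MPO had means of 1.01, 0.653 and 1.4 FPKM in the same order. The part of the markers in the results was not tested, and in bulk RNA fewer cells of a type and less RNA per cell cannot be told apart. In ARV-825 replicate 1, unlike any other library, 6 genes of the mitochondrial genome are listed at 0 FPKM, and leaving that library out changed the call of none of the 8 tested polyamine genes in either ARV-825 comparison.

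The stretches before the start sites of SAT1 and ODC1 are shown because the list is named after these genes, of which SAT1 had the largest change of the 10 genes with each drug and ODC1 a small one. They come from RefSeq (GRCh38.p14), a later build than the hg19 used for the deposited values, and 8 of the 10 genes were matched there, with 12 start windows of 300 bases in all. The entries not matched are AZIN1 and SMOX. Each stretch is the 250 bases before a start, on the gene's own strand, at chrX:23782923-23783172 (plus strand) for SAT1 and chr2:10448328-10448577 (minus strand) for ODC1. Capitals mark the GC box GGGCGG, a common promoter element, on either strand.
SAT1: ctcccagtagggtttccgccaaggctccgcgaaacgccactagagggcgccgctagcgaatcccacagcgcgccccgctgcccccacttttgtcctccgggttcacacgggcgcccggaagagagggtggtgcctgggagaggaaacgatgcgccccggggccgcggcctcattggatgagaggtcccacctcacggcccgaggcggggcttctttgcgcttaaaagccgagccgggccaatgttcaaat
ODC1: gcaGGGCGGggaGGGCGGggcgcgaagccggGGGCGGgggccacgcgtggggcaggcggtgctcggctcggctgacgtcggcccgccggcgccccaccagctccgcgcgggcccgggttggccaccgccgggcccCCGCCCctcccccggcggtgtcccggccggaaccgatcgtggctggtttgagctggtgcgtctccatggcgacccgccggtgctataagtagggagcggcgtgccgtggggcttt
The ODC1 stretch holds 4 GC boxes and the SAT1 stretch none. GC boxes occurred in 9 of the 12 windows of 300 bases, against 45.0% of all 35116 RefSeq start windows. These windows belong to 6 of the 8 matched genes, leaving out SAT1 and SAT2.

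The E-box CACGTG, the core sequence bound by MYC and MAX (a palindrome, so both strands are covered), was found in ODC1 and SRM. It occurred in 2 of the 12 windows, against 7.26% of all RefSeq start windows. In ODC1 it lay only in the window of a further start 315 bases downstream, as 2 copies that begin 286 and 320 bases after the upstream start (chr2:10448024-10448053 and chr2:10447990-10448019, minus strand). In SRM it began at position -199 from the start (chr1:11060200-11060229, minus strand). Each is shown with 12 bases on either side and the E-box in capitals, because ODC1 and SRM are textbook targets of MYC.
ODC1 E-box 1: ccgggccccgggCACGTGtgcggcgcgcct
ODC1 E-box 2: ggcctgcggagaCACGTGgtcgccgagcgg
SRM E-box: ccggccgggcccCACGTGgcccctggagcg
A match of letters is no evidence of binding in these cells, and letters absent from a window say nothing of a factor. MYC mRNA itself had a mean of 287.8 FPKM in control, 113.3 with OTX015 and 23.0 with ARV-825.

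The order of levels changed between the groups, as the plot of FPKM by library shows. In control cells it ran OAZ1 (mean 1176 FPKM), SRM (109.2), AZIN1 (97.4), ODC1 (76.0), AMD1 (45.2), SMS (34.1), OAZ2 (18.2), SAT1 (14.6), SAT2 (13.4) and SMOX (9.39). Only SAT1 and SAT2, both acetyltransferase family genes by name, overlapped there among neighbours in that order. OAZ1 was the 92nd most abundant of 10819 tested genes, while SAT1 ranked 4929th. With OTX015 SAT1 moved up to second place behind OAZ1 (mean 169.0 FPKM, rank 377 among tested genes), and with ARV-825 it also stood second (113.6 FPKM, rank 585), where its range met that of AZIN1. The other neighbours whose ranges overlapped were SRM and ODC1, and OAZ2 and SMS, with OTX015, and SRM and ODC1, and OAZ2 and AMD1, with ARV-825. The lowest value of any of the 10 genes in any library was 4.42 FPKM, so all passed the filter of a mean of 1 FPKM, and the coefficient of variation over 3 libraries ran from 0.457% to 14.7% with a median of 3.28%.

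**Figure D1:**
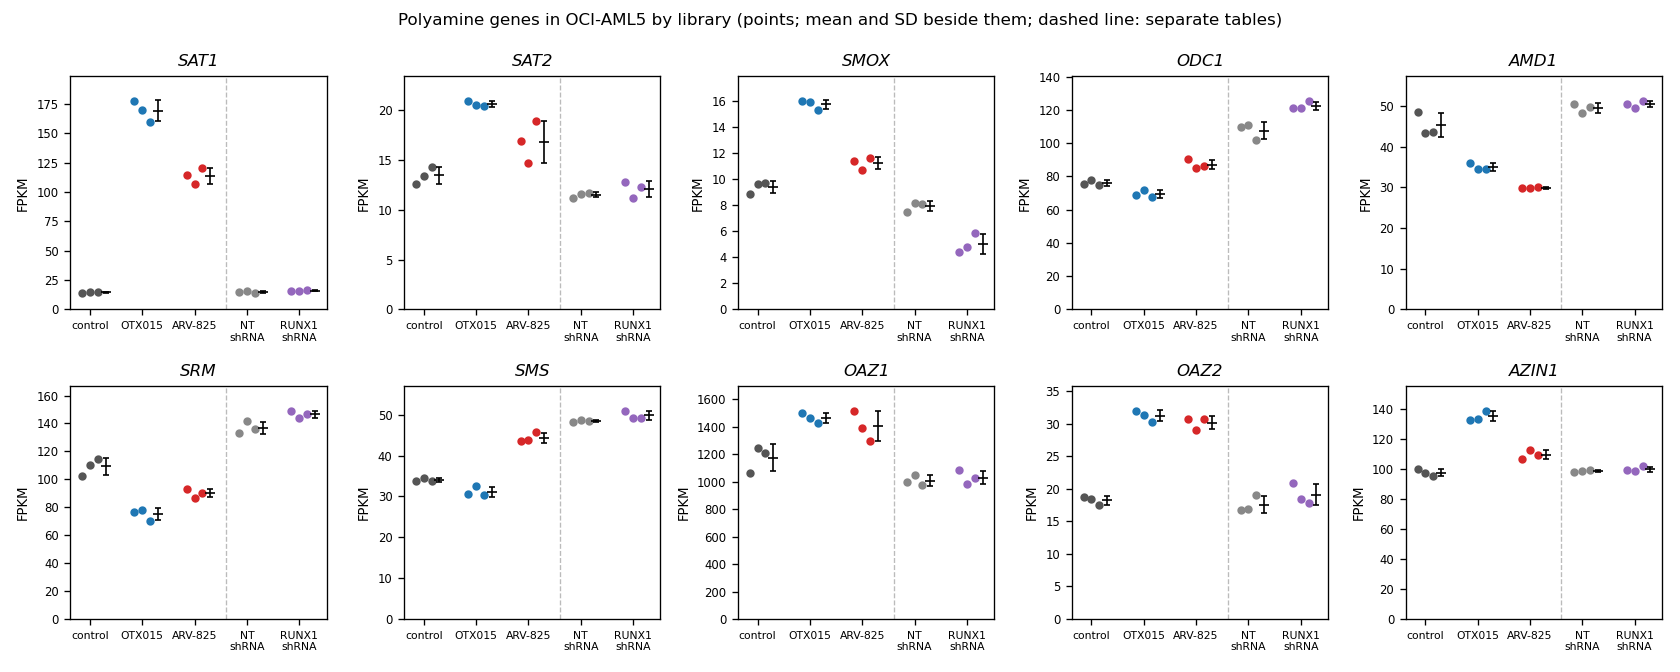
FPKM (vertical axes, linear from 0) of the 10 genes in each library; points are libraries, the bar beside them is the mean with its SD over 3 libraries, and the dashed line separates the drug table from the shRNA table, which were normalized separately. SAT1 lies between 14.1 and 15.1 FPKM in control and between 106.6 and 177.4 FPKM with either drug, whereas ODC1 stays between 67.5 and 90.4 FPKM across the drug libraries.

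Catabolic genes were higher after both drugs, SAT1 by far the most. SAT1 stood at 14.1, 14.7 and 15.1 FPKM in the control libraries, at 177.4, 169.9 and 159.6 with OTX015 and at 114.1, 106.6 and 120.1 with ARV-825. The 3 groups did not overlap, with OTX015 highest. Its mean was 11.6 times that of control with OTX015 and 7.77 times with ARV-825. On the log2 scale the change was 3.44 ± 0.0549 (SE, n = 3 libraries per group) with OTX015, the 9th largest rise of 10819 genes, and 2.87 ± 0.0549 with ARV-825, the 23rd largest. These values are among those the list was named after and carry no test.

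SAT2, a paralogue of SAT1 whose preferred substrate is thialysine rather than the polyamines, rose by far less. It stood at 12.6, 13.4 and 14.3 FPKM in control, 20.9, 20.5 and 20.4 with OTX015 and 16.9, 14.7 and 18.9 with ARV-825, so that both drug groups lay above control. The log2 changes were 0.59 ± 0.08 (limma adjusted p = 6.94e-05) with OTX015 and 0.30 ± 0.08 (adjusted p = 0.00566) with ARV-825. SMOX stood at 8.84, 9.66 and 9.68 FPKM in control, 16.0, 15.9 and 15.3 with OTX015 and 11.4, 10.7 and 11.6 with ARV-825, again without overlap. It rose by 0.69 ± 0.0581 (limma adjusted p = 1.79e-06) with OTX015 and by 0.24 ± 0.0581 (adjusted p = 0.0034) with ARV-825. SHBG, whose gene spans that of SAT2 on the other strand without sharing exon bases in GENCODE release 29, did not exceed a mean of 0.817 FPKM in any group.

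Synthesis genes did not move as one. ODC1 stood at 75.7, 77.8 and 74.6 FPKM in control, 68.8, 71.8 and 67.5 with OTX015 and 90.4, 85.0 and 86.1 with ARV-825. The OTX015 libraries were the lowest and the ARV-825 libraries the highest, with no overlap. The log2 changes, given without a test, were -0.13 ± 0.041 with OTX015 and 0.19 ± 0.041 with ARV-825, ranks 4021 among falls and 3821 among rises. MYC was lowest with ARV-825, where ODC1 was highest, and a link between these levels was not tested.

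AMD1 and SRM fell with both drugs. AMD1 stood at 48.6, 43.4 and 43.6 FPKM in control, 36.0, 34.6 and 34.4 with OTX015, and 29.8, 29.8 and 30.2 with ARV-825, the groups lying apart with ARV-825 lowest. Its log2 changes were -0.36 ± 0.049 (limma adjusted p = 6.97e-05) and -0.58 ± 0.049 (adjusted p = 1.29e-06). SRM stood at 102.6, 110.6 and 114.5 FPKM in control, 76.7, 78.4 and 70.1 with OTX015, and 92.8, 87.0 and 90.1 with ARV-825, the groups again lying apart but with OTX015 lowest. Its log2 changes were -0.54 ± 0.0548 (limma adjusted p = 7.69e-06) and -0.28 ± 0.0548 (adjusted p = 0.000875). GENCODE release 29 lists 4 processed pseudogenes of AMD1 and 2 of SRM, and the labels do not say how reads were shared with them, so the values of both genes are uncertain to that extent.

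SMS, which completes the chain to spermine, moved in opposite directions. It stood at 33.9, 34.6 and 33.7 FPKM in control, 30.6, 32.5 and 30.3 with OTX015 and 43.6, 43.7 and 45.7 with ARV-825. It rose by 0.37 ± 0.0424 on the log2 scale with ARV-825 (limma adjusted p = 1.36e-05). With OTX015 it fell by 0.13 on the same scale (SE 0.0424, adjusted p = 0.0214), a call that was lost without OTX015 replicate 1 (-0.11, adjusted p = 0.0709), without OTX015 replicate 3 (-0.11, adjusted p = 0.0638) and without control replicate 2 (-0.11, adjusted p = 0.0686).

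Relative to the other mRNAs, the antizymes and the antizyme inhibitor rose together with both drugs. Small rises such as those of OAZ1 and AZIN1 with ARV-825 need not mean more mRNA per cell, which was not tested. OAZ2 stood at 18.8, 18.4 and 17.5 FPKM in control, 32.0, 31.3 and 30.3 with OTX015 and 30.7, 29.0 and 30.7 with ARV-825. Both drug groups lay well above control and overlapped each other. The log2 changes of OAZ2 were 0.74 ± 0.0464 (limma adjusted p = 1.89e-07) with OTX015 and 0.69 ± 0.0464 (adjusted p = 2.13e-07) with ARV-825. OAZ1, the most abundant of the 10 genes, stood at 1067, 1249 and 1213 FPKM in control, 1500, 1464 and 1431 with OTX015 and 1519, 1395 and 1299 with ARV-825, every treated library lying above every control. It rose by 0.32 ± 0.0789 (limma adjusted p = 0.00402) and 0.26 ± 0.0789 (adjusted p = 0.0127), and the second call was lost without control replicate 1 (0.19, adjusted p = 0.0565). AZIN1 stood at 99.7, 96.9 and 95.4 FPKM in control, 132.4, 133.3 and 138.6 with OTX015 and 106.4, 112.7 and 109.0 with ARV-825, 3 groups apart from one another. It rose by 0.46 ± 0.0392 (limma adjusted p = 1.81e-06) and by 0.17 ± 0.0392 (adjusted p = 0.00274). Other annotated genes cover 6.87% (JSRP1) and 6.4% (AC005258.1) of the exon bases of OAZ1, 7.22% of OAZ2 (AC100830.3) and 5.35% of AZIN1 (AZIN1-AS1). AC005258.1 lies on the strand of OAZ1, so strand would not separate reads from the shared bases. The others lie on the opposite strand, and without stated strand their reads cannot be told apart.

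In counts, 6 of the 8 tested genes rose and 2 fell with ARV-825, where 35.8% of all tested genes rose and 38.4% fell. With OTX015, 5 rose and 3 fell, against 36.1% and 33.5% of all tested genes. All 8 were thus called in each comparison, in which most genes were called, and the comparisons share the 3 control libraries. The median log2 change over the 8 tested members was 0.25 with ARV-825 and 0.39 with OTX015, against -0.01 and 0.03 over all tested genes. The plot of log2 changes sets the comparisons side by side.

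**Figure D2:**
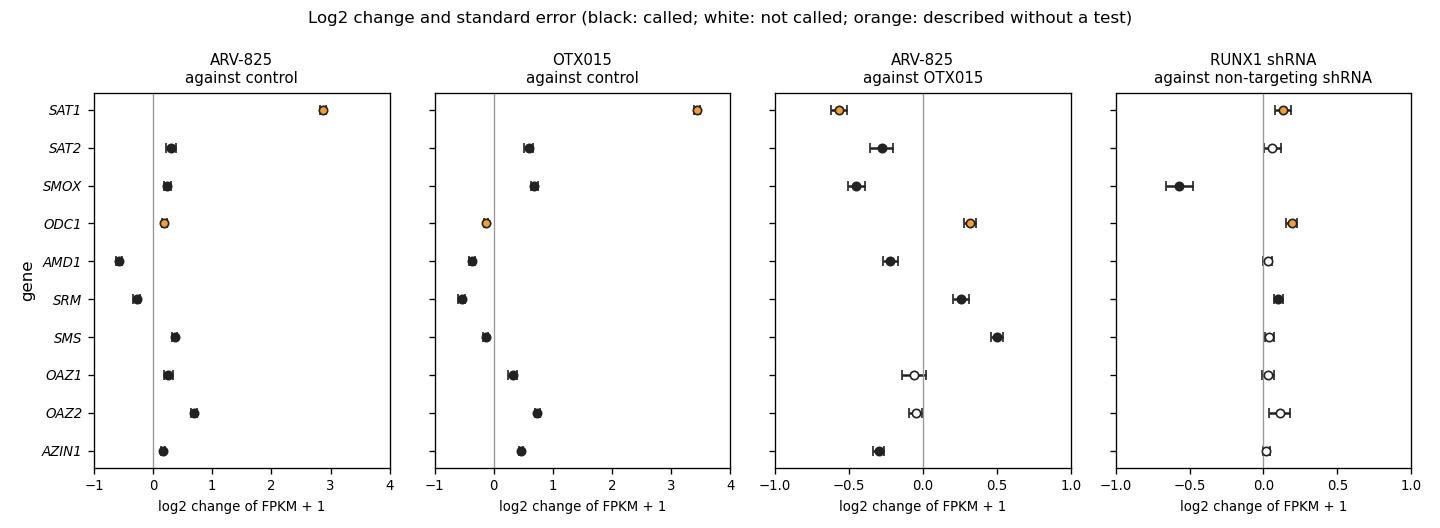
Log2 change of FPKM + 1 (horizontal axes, narrower scale in the right-hand pair of panels) with its standard error for the 10 genes in the 4 comparisons; filled black points were called by limma, white points were not, and orange points (SAT1 and ODC1) are described without a test. SAT1 reaches 2.87 with ARV-825 and 3.44 with OTX015, no other gene exceeds 0.74, and SMOX at -0.57 is the largest change with RUNX1 shRNA.

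ARV-825 and OTX015 differ by the linker and cereblon ligand that ARV-825 carries, and were given at the same dose for the same time, so their libraries were compared directly. Of the 8 tested genes, 2 were higher with ARV-825 (24.7% of all tested genes were) and 4 were lower (33.4% were). SMS was higher with the degrader by 0.50 ± 0.0424 on the log2 scale (limma adjusted p = 7.72e-06) and SRM by 0.26 ± 0.0548 (adjusted p = 0.00217). SMOX was lower with the degrader by 0.45 (log2 difference -0.45 ± 0.0581, limma adjusted p = 9.2e-05), AZIN1 differed by -0.30 ± 0.0392 (adjusted p = 0.000104), SAT2 by -0.28 ± 0.08 (adjusted p = 0.0108) and AMD1 by -0.22 ± 0.049 (adjusted p = 0.0029). The antizymes were not called, with 95% intervals of -0.153 to 0.052 for OAZ2 (limma adjusted p = 0.371) and -0.239 to 0.111 for OAZ1 (adjusted p = 0.51). Described without a test, SAT1 differed by -0.57 ± 0.0549 and ODC1 by 0.32 ± 0.041. The median over the 8 tested members was -0.14, against -0.04 over all tested genes.

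Levels of SAT1, of the antizymes and of AZIN1 relative to ODC1 are given as a description. ODC1 does not stand for the other synthesis genes, which did not move as one. The SAT1 to ODC1 ratio of FPKM was 0.192 ± 0.0089 in control (SD, n = 3), 2.44 ± 0.122 with OTX015 and 1.30 ± 0.0797 with ARV-825, so that SAT1 mRNA passed ODC1 mRNA with both drugs. The ratio of OAZ1 plus OAZ2 to ODC1 was 15.7 ± 1.18 in control, 21.6 ± 0.716 with OTX015 and 16.4 ± 0.885 with ARV-825. Its ARV-825 range, 15.5 to 17.1, overlapped the control range of 14.3 to 16.5, and the OTX015 range of 20.8 to 22.3 lay above both. The AZIN1 to ODC1 ratio behaved alike, at 1.28 ± 0.0361 in control, 1.94 ± 0.1 with OTX015 and 1.26 ± 0.0748 with ARV-825. With non-targeting and RUNX1 shRNA the SAT1 to ODC1 ratio was 0.135 ± 0.00259 and 0.130 ± 0.0031, the antizyme ratio 9.55 ± 0.246 and 8.57 ± 0.467, and the AZIN1 ratio 0.916 ± 0.047 and 0.814 ± 0.00264. The antizyme and AZIN1 ratios were lower in every RUNX1 shRNA library than in any non-targeting library. ODC1, their shared denominator, was higher with RUNX1 shRNA (mean 122.6 against 107.6 FPKM), while OAZ1, OAZ2 and AZIN1 were not called. In the drug table ODC1 had means of 76.0 FPKM in control, 69.4 with OTX015 and 87.1 with ARV-825. OAZ1, OAZ2 and AZIN1 were called higher with both drugs.

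**Figure D3:**
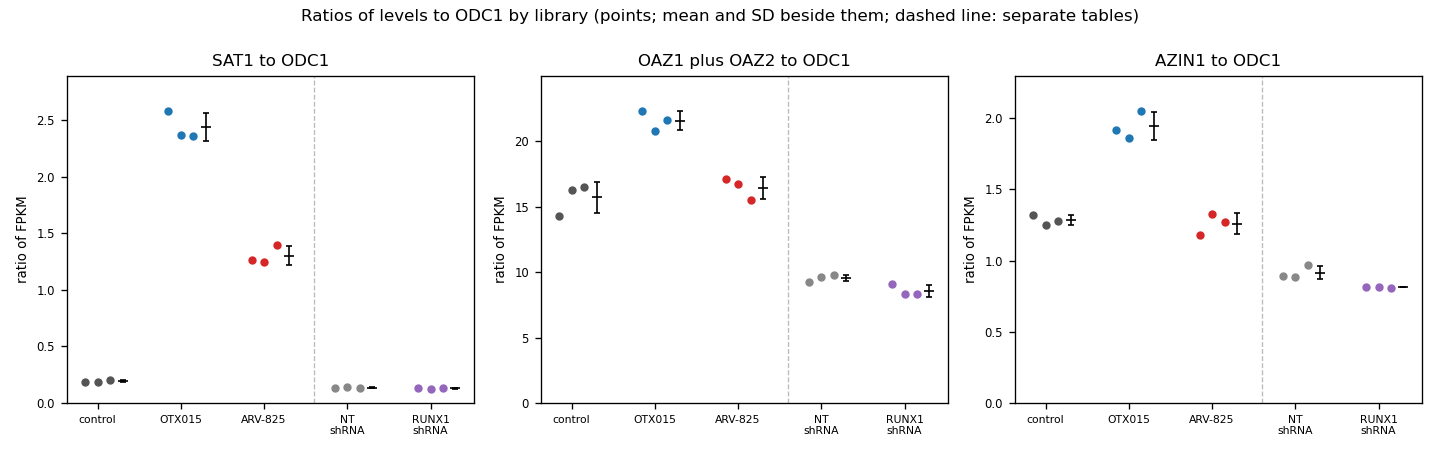
Ratios of FPKM (vertical axes, linear from 0) of SAT1, of OAZ1 plus OAZ2 and of AZIN1 to ODC1 in each library, with the mean and SD over 3 libraries beside the points and a dashed line between the separately normalized tables. The SAT1 to ODC1 ratio lies between 0.186 and 0.202 in control, 1.25 and 1.40 with ARV-825, 2.36 and 2.58 with OTX015, and 0.127 and 0.138 in the shRNA libraries.

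Knockdown of RUNX1 for 72 h left most of the pathway within small intervals, and SMOX was the exception. SMOX stood at 7.48, 8.15 and 8.13 FPKM with non-targeting shRNA and at 4.42, 4.81 and 5.86 with RUNX1 shRNA, all libraries of the second group being lower. It fell by 0.57 on the log2 scale (SE 0.0907, limma adjusted p = 0.00255), the 130th largest fall of 10925 tested genes, whereas both drugs raised it. SRM stood at 133.1, 141.6 and 136.0 FPKM with non-targeting and 149.2, 143.8 and 146.6 FPKM with RUNX1 shRNA. It rose by 0.10 ± 0.0301 (limma adjusted p = 0.042), and this call was lost without any one of 4 libraries: non-targeting replicate 1 (adjusted p = 0.136) or 3 (0.118), and RUNX1 shRNA replicate 1 (0.112) or 3 (0.0792). It was also lost with no filter on low values (adjusted p = 0.0743) and with no mean-variance trend (0.12).

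The other 6 tested genes were not called. Their changes and 95% intervals were 0.11 (-0.052 to 0.268) for OAZ2, 0.06 (-0.07 to 0.194) for SAT2, 0.04 (-0.027 to 0.106) for SMS, 0.03 (-0.063 to 0.125) for OAZ1, 0.03 (-0.043 to 0.098) for AMD1 and 0.02 (-0.037 to 0.077) for AZIN1, with limma adjusted p from 0.286 to 0.61. The intervals of SMS, AMD1 and AZIN1 are the narrowest and leave room for a rise of at most 0.106. Thus 1 of 8 rose and 1 fell, against 13.5% and 13.8% of all tested genes. The median over the 8 tested members was 0.04, against -0.01 over all tested genes.

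SAT1 and ODC1 are again given without a test. SAT1 stood at 14.7, 15.3 and 13.6 FPKM with non-targeting and 16.1, 15.3 and 16.3 with RUNX1 shRNA (log2 change 0.13 ± 0.0545), the groups meeting at 15.3 FPKM. ODC1 stood at 109.6, 111.2 and 101.9 FPKM with non-targeting and 121.3, 121.1 and 125.4 with RUNX1 shRNA (log2 change 0.19 ± 0.0365), every library of the second group being higher. In the order of levels with non-targeting shRNA SAT1 was again near the end of the 10 genes, at 14.5 FPKM and rank 5367 of 10925, while SRM (136.9 FPKM) and ODC1 (107.6 FPKM) followed OAZ1 (1009 FPKM).

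A wider list of 33 polyamine-related genes covered the supply of ornithine and putrescine, oxidation, transport, hypusination, S-adenosylmethionine supply and methylthioadenosine salvage. The same 20 reached a mean of 1 FPKM in either table, and 13 did not. Among these low genes are ARG1, the cytosolic arginase, the acetylpolyamine oxidase PAOX and AOC1, a diamine oxidase. Of the 20, 6 rose and 7 fell with ARV-825 (median log2 change 0.03), near the 35.8% and 38.4% of all tested genes that did. With OTX015 6 rose and 9 fell (median -0.13), against 36.1% and 33.5% of all tested genes. The counts by role below are over 3 to 5 genes each and are to be read against the same shares.

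Of 3 tested genes of ornithine and putrescine supply, 2 rose with ARV-825, and with OTX015 2 rose and 1 fell. OAT, the aminotransferase that links ornithine to proline and glutamate, rose from 28.3 ± 1.07 FPKM in control (mean ± SD, n = 3) to 47.9 ± 0.438 with OTX015 (log2 change 0.74, limma adjusted p = 8.59e-08) and 53.8 ± 1.5 with ARV-825 (0.90, adjusted p = 1.44e-08). ARG2, the mitochondrial arginase that makes ornithine, rose from 5.15 ± 0.441 to 8.11 ± 0.318 FPKM with ARV-825 (0.57, limma adjusted p = 2.36e-05). With OTX015 it reached 5.99 ± 0.146 FPKM (0.19, adjusted p = 0.0334), a call that was lost without any one of 5 libraries, namely OTX015 replicate 1, 2 or 3 and control replicate 1 or 3 (adjusted p up to 0.111). Rescaling by median ratios also ended it (adjusted p = 0.0659). AGMAT, named for agmatine hydrolysis, fell from 4.57 ± 0.207 to 2.80 ± 0.167 FPKM with OTX015 (-0.55, limma adjusted p = 5.09e-05) and had a mean of 4.77 ± 0.294 FPKM with ARV-825 (0.05, adjusted p = 0.532), a difference between the drugs of 0.60 (adjusted p = 5.8e-05).

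Of 5 tested transport genes, 2 fell with each drug, against 38.4% of all tested genes with ARV-825 and 33.5% with OTX015. With ARV-825 1 rose (SLC47A1, an organic cation exporter named after its values were seen, 0.25, limma adjusted p = 0.00989) and with OTX015 0 rose. Of all tested genes 35.8% and 36.1% rose. Of 4 tested genes around the hypusinated factor EIF5A, 2 fell and 1 rose with each drug. SLC22A16, an organic cation and carnitine transporter, fell from 9.19 ± 0.48 FPKM in control to 2.01 ± 0.202 with OTX015 (-1.76, limma adjusted p = 3.37e-07) and 2.46 ± 0.612 with ARV-825 (-1.57, adjusted p = 5.36e-07). SLC3A2, the heavy chain of several amino acid transporters, fell from 71.5 ± 5.72 to 32.7 ± 2.36 FPKM with OTX015 (-1.11, limma adjusted p = 6.67e-07) and 37.3 ± 3.86 with ARV-825 (-0.92, adjusted p = 1.86e-06). EIF5A, the translation factor whose hypusine residue is made from spermidine, fell from 539.1 ± 35.5 to 347.8 ± 12.8 FPKM with OTX015 (-0.63, limma adjusted p = 2.82e-06) and 352.4 ± 10.8 with ARV-825 (-0.61, adjusted p = 2.53e-06). Its paralogue EIF5A2 rose from 5.88 ± 1.06 to 12.1 ± 0.332 FPKM with OTX015 (0.94, limma adjusted p = 0.00166) and 10.2 ± 3.47 with ARV-825 (0.66, adjusted p = 0.0118). The ARV-825 range of EIF5A2, 6.28 to 12.9 FPKM, overlapped the control range of 4.89 to 7.0. The second gene that fell was DOHH, the hydroxylase that completes hypusine, which lay just under the naming threshold before rounding and was named after its values were seen (-0.50, limma adjusted p = 0.000559 with OTX015, and -0.36, adjusted p = 0.00438 with ARV-825).

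Of 3 tested genes of S-adenosylmethionine supply, 1 rose and 1 fell with ARV-825, and 2 rose and 1 fell with OTX015. The one that fell was MAT2A, the catalytic subunit of the synthetase, named after its values were seen, from 122.4 ± 6.16 FPKM to 93.4 ± 3.02 with OTX015 (-0.39, limma adjusted p = 0.000578) and 102.2 ± 10.7 with ARV-825 (-0.26, adjusted p = 0.00611). AHCY, which clears S-adenosylhomocysteine, rose from 75.5 ± 1.6 to 93.0 ± 4.03 FPKM with OTX015 (0.30, limma adjusted p = 0.000119) and 109.6 ± 3.38 with ARV-825 (0.53, adjusted p = 1.01e-06). Of 5 tested genes of methylthioadenosine salvage, 1 rose and 2 fell with ARV-825, and 1 rose and 3 fell with OTX015. MTAP, the phosphorylase that starts the recovery of methylthioadenosine, a by-product of the spermidine and spermine synthases, fell from 24.3 ± 0.457 to between 12.1 and 13.8 FPKM in the OTX015 libraries (-0.86, limma adjusted p = 1.83e-07) and 14.6 ± 0.122 with ARV-825 (-0.70, adjusted p = 5.93e-07). ADI1, a later enzyme of that pathway, rose from 30.7 ± 0.534 to 59.4 ± 1.58 FPKM with OTX015 (0.93, limma adjusted p = 1.18e-08) and 61.0 ± 1.49 with ARV-825 (0.97, adjusted p = 6.34e-09).

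Between the drugs, 7 of the 20 were higher and 1 was lower with ARV-825, against 24.7% and 33.4% of all tested genes. The lower one, MAT2B, a regulatory subunit of the S-adenosylmethionine synthetase, was named after its values were seen (38.0 ± 0.794 FPKM with OTX015, 34.2 ± 1.05 with ARV-825, log2 difference -0.15, limma adjusted p = 0.028). That call was lost without ARV-825 replicate 1 (adjusted p = 0.0912) or 2 (0.066), without OTX015 replicate 2 (0.088) or 3 (0.0505), and after median-ratio rescaling (0.08). With RUNX1 shRNA 3 rose and 2 fell (median -0.02), near the 13.5% and 13.8% of all tested genes that did. The rises were ADI1 (0.17, limma adjusted p = 0.0062), SLC3A2 (0.27, adjusted p = 0.00332) and ATP13A3, a polyamine-transporting ATPase named after its values were seen, from 48.2 ± 1.63 to 63.4 ± 5.63 FPKM (0.38, adjusted p = 0.00247). The falls were SLC22A16 (-0.17, limma adjusted p = 0.0402) and EIF5A2 (-0.28, adjusted p = 0.048), and neither was called without non-targeting replicate 1, 2 or 3 or without RUNX1 shRNA replicate 1 or 2 (adjusted p = 0.0558 to 0.153).

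**Figure D4:**
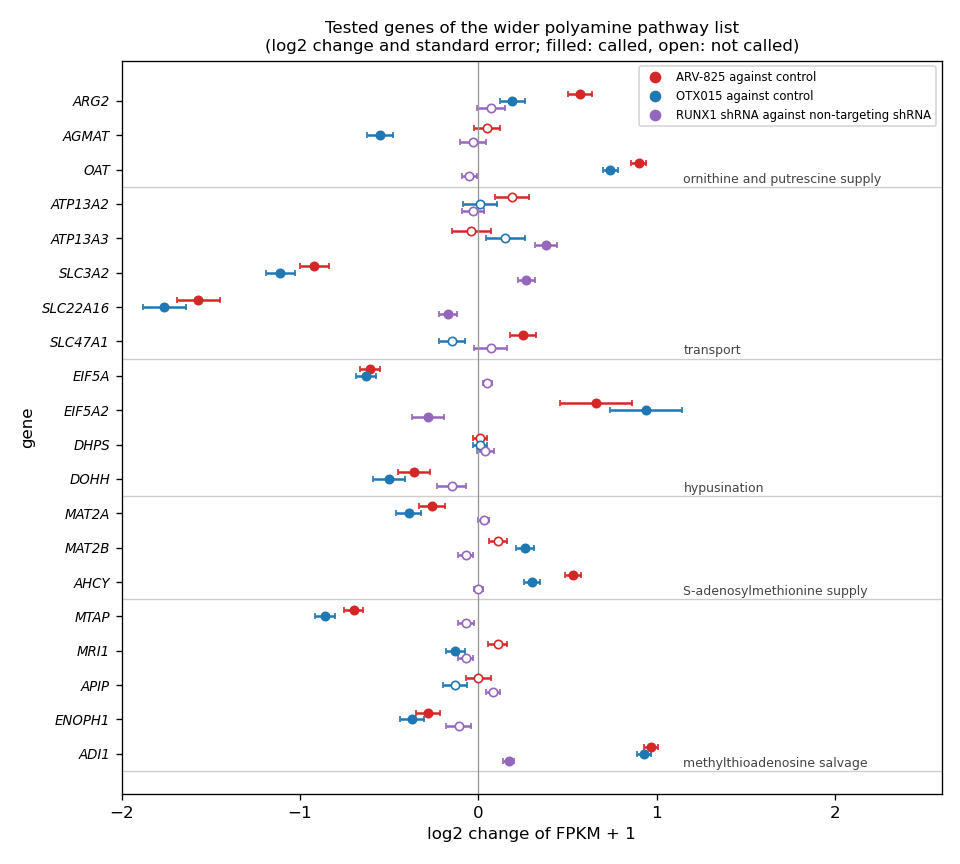
Log2 change of FPKM + 1 (horizontal axis) with its standard error for the 20 tested genes of the wider polyamine list (vertical axis), grouped by role, for ARV-825 (red) and OTX015 (blue) against control and RUNX1 shRNA (purple) against non-targeting shRNA; filled points were called by limma and open ones were not. SLC22A16 lies farthest to the left at -1.76 and -1.57 with the drugs, ADI1, OAT and EIF5A2 lie to the right, and the shRNA changes stay between -0.28 and 0.38.

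The genes most like SAT1 across the 9 drug libraries, by Pearson correlation of log2(FPKM + 1) among 1454 genes with an SD of at least 0.5, were HIST3H2A (r = 0.9988), HIST1H2AC (0.9978), MARCKSL1 (0.9975), GPS2 (0.9966) and AMIGO3 (0.9961). HIST3H2A and HIST1H2AC encode histone H2A. HIST3H2A had means of 8.53, 64.4 and 48.3 FPKM and MARCKSL1 of 34.1, 94.6 and 80.4 FPKM in control, OTX015 and ARV-825. AMIGO3 had means of 0.0518, 4.23 and 2.78 FPKM in the same order, so it passed the filter only through the drug groups. ODC1 itself varied by less than that SD, so its likeness rests on small differences. For ODC1 they were CD247 (r = 0.9753), BZRAP1 (0.955), PMAIP1 (0.9291), HK3 (0.9252) and ICAM5 (0.9187), of which PMAIP1 had means of 10.9, 9.32 and 22.7 FPKM. CD247 had means of 0.824, 0.289 and 2.06 FPKM, so it passed the filter only through ARV-825. These points are 3 groups of libraries that share a normalization, so the correlations describe the order and spacing of the groups.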

How the data were processed

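Total RNA was sequenced in 15 OCI-AML5 libraries. The authors deposited 2 tables of protein-coding genes, read as FPKM because Cufflinks 2.0 (with TopHat2 2.0 and hg19) is listed per the submitters' processing notes. Quantile normalization within each table by the authors is read from the table names and from values that recur: 93.0% to 97.8% of a library's values above 0 recur exactly in some other library of its table, against at most 0.0529% in the other. Groups follow the treatment labels, replicate numbers the titles. Gene IDs were matched to symbols by the supplied gene list. Pseudoautosomal Y copies were left out.

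Genes whose mean reached 1 FPKM were tested as log2(FPKM + 1) with limma 3.58.1 (eBayes with trend, two-sided) in R 4.3.3, the 9 drug libraries in 1 fit and the 6 shRNA libraries in another, with Benjamini-Hochberg adjustment over all tested genes. The fit was tested on simulated data. The members and lists were chosen with earlier results of these data known. Named are all 10 members, wider-list genes called with an absolute log2 change of at least 0.5 before rounding in any comparison, the 5 genes most like SAT1 and ODC1, RUNX1, RUNX3, MYC and HEXIM1 (11.3 FPKM in control, 92.0 with OTX015, 49.6 with ARV-825). Alternatives were pseudocount 0.1, no filter, a mean of 5 FPKM, median-ratio rescaling, no trend, a replicate block, 2-group fits and leaving out each library. The libraries are labelled biological triplicates with no culture or day named, so p-values rest on library-to-library spread, which may be partly technical.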

Additional observations from a re-analysis of the deposited data

How the results depend on the processing

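Over 408 refits of the 8 tested polyamine genes, 396 kept direction and call, 11 lost the call and 1 turned direction. OAZ1 with RUNX1 shRNA, not called, stood at -0.0053 without RUNX1 shRNA replicate 1. SAT1 ranged from 2.83 to 2.95 with ARV-825 and from 3.41 to 3.52 with OTX015, SMOX from -0.67 to -0.50 with RUNX1 shRNA. With RUNX1 shRNA the count of tested polyamine genes that rose went from 1 to 0 with no filter on low values, with no trend and with the replicate block, and to 0 to 1 when a library was left out. In the wider list the count that fell with RUNX1 shRNA was 0 with no filter, 1 with no trend, 1 with the replicate block and 0 to 3 without 1 library, and the count lower with ARV-825 than OTX015 was 2 with no filter, 0 after median-ratio rescaling, 0 with the replicate block and 0 to 1 without 1 library. Over all genes, 966 to 1436 fell with RUNX1 shRNA without 1 library, against 1512, with 978 without non-targeting replicate 2 and 966 without replicate 3. The cause was not tested.

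Besides OAZ1, directions that turned were of genes not called in that comparison. With ARV-825, ATP13A3 ranged from -0.16 to 0.06 without 1 library (0.06 without ARV-825 replicate 3). Between the drugs, EIF5A ranged from -0.0071 to 0.05 (-0.0059 without ARV-825 replicate 1, -0.0071 without OTX015 replicate 3) and EIF5A2 from -0.46 to 0.0062 (without ARV-825 replicate 3). With RUNX1 shRNA, AGMAT ranged from -0.08 to 0.02 (0.02 and 0.0068 without non-targeting and RUNX1 shRNA replicate 2), SLC47A1 ranged from -0.0044 to 0.15 (-0.0044 without non-targeting replicate 1), and AHCY was -0.0042 without non-targeting replicate 1. Replicate numbers did not pair the libraries, with correlations of same-numbered deviations from -0.321 to 0.0613, and not every library correlated best with its own number. The replicate block ended the calls of SRM (adjusted p = 0.078) and SLC22A16 (0.0699) with RUNX1 shRNA, ARG2 with OTX015 (0.0536) and MAT2B between the drugs (0.0577), and no other call of a named gene. Read depth is unknown, so no counting error can be given.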
